A study of Rattus norvegicus with 15 samples.

Results

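A group of 100 genes fell to 25% or less of its untreated level in rat bone marrow mesenchymal stem cells kept in adipogenic medium and also in those kept in osteogenic medium. The genes were chosen from a table of RNA sequencing read counts. A level is given as CPM, the reads of a gene per 1000000 reads counted in its library. A gene was a member if its Control mean was at least 5 CPM and if the Adi mean and the Ost mean were each at most 0.25 of the Control mean, after 0.5 CPM was added to each mean. These 100 genes are 0.966% of the 10347 Ensembl genes with at least 5 CPM in Control and belong to a table of 32883 Ensembl genes. The ratio was met by 145 genes in Adi (1.4%) and by 514 in Ost (4.97%), and the members are the 100 that met both.

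All cells came from the bone marrow of Sprague-Dawley rats, an outbred strain, were seeded at passage 3 to 6 and were grown to full confluence in growth medium. The Control group was untreated, the Adi group was moved to adipogenic and the Ost group to osteogenic differentiation medium. Adi_ASA and Ost_ASA cells were kept in the same media with aspirin (acetylsalicylic acid, an inhibitor of the cyclooxygenases). Each of the 5 groups had 3 libraries, with 18373289 to 22817858 counted reads per library. The aspirin dose, the time in each medium and whether replicates were separate animals or dishes are not stated in the labels. The p-values therefore rest on a library-to-library spread that may be technical, and a difference from Control cannot be told apart from time in culture.

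Bone marrow mesenchymal stem cells are adherent stromal cells that can become adipocytes or osteoblasts. Entry into either lineage is known to switch on lineage genes, led by PPARG and the C/EBP factors for fat and by RUNX2 and SP7 for bone, and to switch off genes of the proliferating, uncommitted stromal cell. The deposited table pairs no identifier with a symbol, and the reference table held 0 Ensembl identifiers, so no lookup was possible. Members are therefore named by Ensembl identifier, their functions and positions are not stated, and the lists of pathway genes and cell type markers could not be applied. In bulk RNA, fewer cells of a type and less RNA per cell cannot be told apart.

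The members were a visible part of the untreated transcriptome. They took 2.16%, 2.37% and 2.15% of the counted reads in the 3 Control libraries. In Adi they took 0.344%, 0.340% and 0.274%, and in Adi_ASA 0.375%, 0.371% and 0.437%. In Ost they took 0.0982%, 0.0957% and 0.0972%, and in Ost_ASA 0.0913%, 0.0893% and 0.0959%. Control was far above every other group, which the rule itself set for Adi and Ost. The adipogenic libraries lay between, and the osteogenic libraries were lowest with no overlap between media. In Control 6 members were above 1000 CPM, 21 were between 100 and 1000, 50 between 10 and 100 and 23 between 5 and 10. The 10 most abundant members held 75.3% of the members' Control CPM, so the shares of reads describe mainly those.

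**Figure D1:**
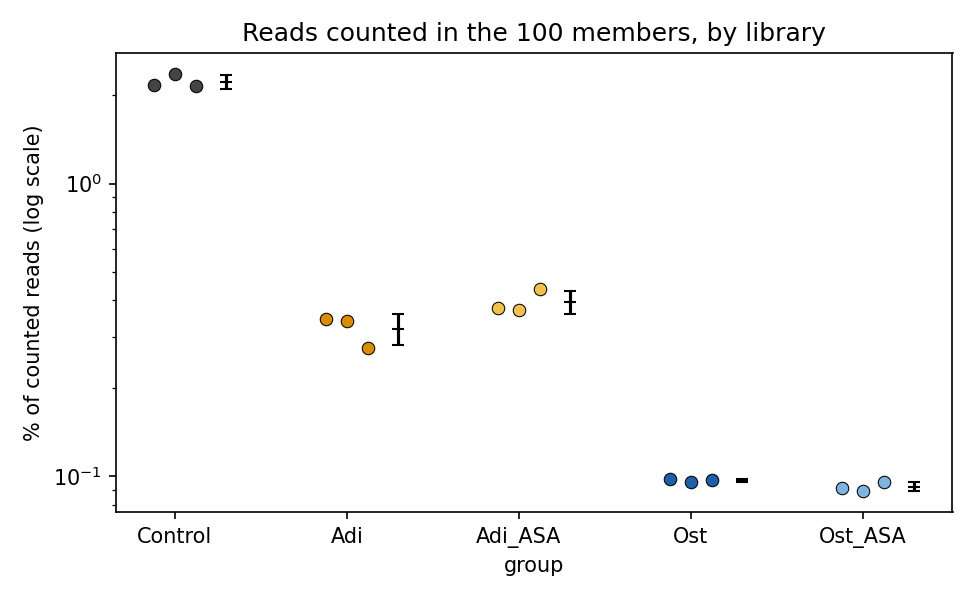
Percentage of counted reads that fell in the 100 members (vertical axis, log scale) for each library of the 5 groups (horizontal axis). Circles are libraries and the bar beside them is the mean ± SD (n = 3). Control libraries lie at 2.15% to 2.37% and all 6 osteogenic libraries under 0.1%.

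The fall was deeper in osteogenic than in adipogenic medium for most members. The level left in Adi ranged from 3.25% to 24.98% of Control with a median of 16.9%, and the level left in Ost from 0.136% to 23.1% with a median of 6.77%. In Ost 77 members were at or under 12.5% of Control, against 34 in Adi, and 47 were at or under 6.25%, against 8. The mean was lower in Ost than in Adi for 84 members and higher for 16. With 0.5 CPM added, 31 members were at least 4 times higher in Adi than in Ost, 42 were within 2-fold, and 2 were at least 2 times higher in Ost. In the edgeR fit described below, 76 members were higher in Adi than in Ost and 8 lower (33% and 33.5% of all genes tested, 66.5% in all), and the libraries did not overlap for 74 and 9 (34.4% and 35.4%). These values come from the groups that chose the members and are given as a description. The members nearest to the threshold had a larger ratio of 24.98%, 24.96% and 24.86%, and the genes just outside it 25.06%, 25.25% and 25.56%, so the edge of the group divides genes with nearly the same values.

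**Figure D2:**
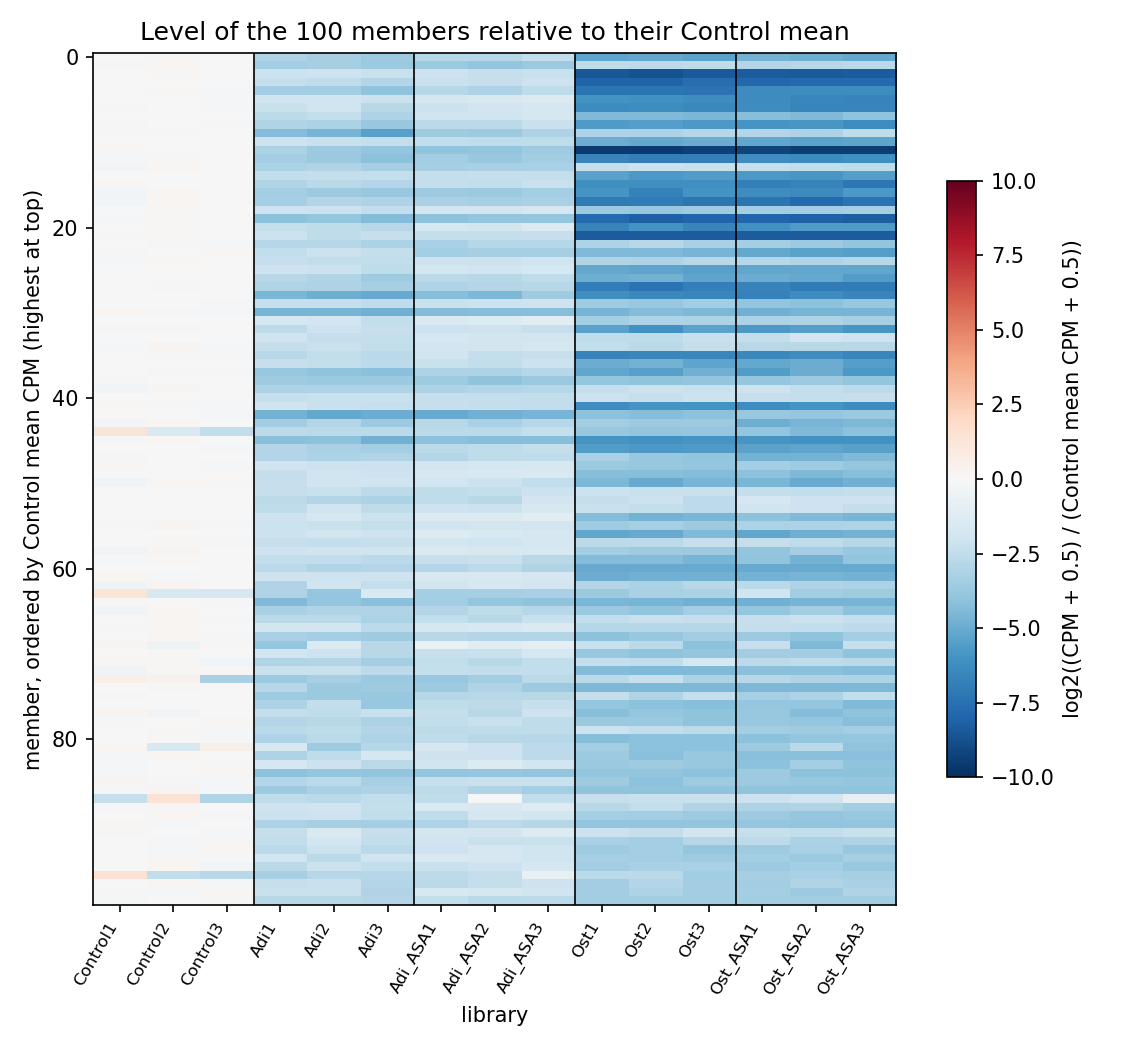
Level of each member (rows, ordered by Control mean with the highest at the top) in each of the 15 libraries (columns), as log2 of CPM + 0.5 relative to the member's Control mean + 0.5. Blue is lower and red higher than the Control mean. Osteogenic libraries are the darkest blue, and a few rows have a single red Control library beside pale blue ones.

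Scaling and single libraries bear on membership. Shares of the column total place the median of the 15543 genes tested at -0.18 on the log2 scale in Adi relative to Control and at -0.05 in Ost, whereas TMM scaling (trimmed mean of M values, which aligns the bulk of genes) places them at -0.01 and -0.02. With TMM-scaled CPM, 85 genes met the rule, all of them members. Leaving out 1 Control library at a time removed 13 members in all, leaving out 1 Adi library removed 10, and leaving out 1 Ost library removed 0, so that 83 members held without any single library and 78 of these also with TMM scaling.

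The spread among Control libraries was small for most members, with a median SD of 9.25% of the mean, but in 4 members the highest Control library was over 3 times the next. ENSRNOG00000046652, singled out after its values were seen, had 1.183, 21.7 and 0.510 CPM in Control, 0.943, 0.778 and 1.02 CPM in Adi and 1.153, 1.252 and 1.275 CPM in Ost. Its membership rests on Control replicate 2 alone. ENSRNOG00000046246, also singled out afterwards, had 32.1, 3.92 and 3.77 CPM in Control and 1.20, 0.467 and 4.42 CPM in Adi, so Control and Adi overlapped.

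In the model fitted across all genes (edgeR quasi-likelihood test, adjusted p under 0.05) 98 members were lower in Adi than in Control, where 24.4% of all genes tested were lower, and 99 were lower in Ost than in Control, where 34.8% were lower. After TMM scaling every Adi library was below every Control library for 94 members and above for 0, against 28.9% and 28.6% of all genes, and every Ost library for 97 and 0, against 36.6% and 36%. The rule used these contrasts, so the counts support nothing. They show that ENSRNOG00000046246 and ENSRNOG00000046652 were not called in Adi and that ENSRNOG00000046652 was not called in Ost.

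The most abundant member, ENSRNOG00000011946, had 2681, 3038 and 2693 CPM in the Control libraries. It had 351, 284 and 224 CPM in Adi and 378, 382 and 509 CPM in Adi_ASA. It had 73.1, 79.8 and 70.0 CPM in Ost and 104, 93.9 and 81.9 CPM in Ost_ASA. Control was highest, the adipogenic groups came next and both osteogenic groups were lowest, with no overlap between the media.

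The next most abundant member, ENSRNOG00000017206, followed the opposite order of media. It had 2447, 3101 and 2695 CPM in Control and 262, 278 and 207 CPM in Adi. It had 474, 441 and 462 CPM in Ost. All Ost libraries were above all Adi libraries, and the gene kept 16.7% of its Control level in Ost and 9.09% in Adi.

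The members lowered furthest in both media at once, taken by the larger of their ratios, were ENSRNOG00000005985 and ENSRNOG00000016753. ENSRNOG00000005985 had 84.1, 89.0 and 91.2 CPM in Control, 3.30, 2.54 and 2.23 CPM in Adi and 0.754, 0.544 and 0.455 CPM in Ost. It kept 3.60% of its Control level in Adi and 1.22% in Ost. ENSRNOG00000016753 had 94.9, 76.6 and 72.8 CPM in Control, 2.72, 2.80 and 2.38 CPM in Adi and 2.84, 3.48 and 3.14 CPM in Ost. It kept 3.82% and 4.46%, so little was left of this gene in either medium, and its Adi and Ost libraries overlapped after TMM scaling.

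Some members were no longer detected in osteogenic medium. In Ost 6 members had 0 reads in all 3 libraries and another 15 had 1 to 9 reads, and in Ost_ASA the numbers were 6 and 16. The same 5 members had 0 reads in all 6 osteogenic libraries, and 0 members had 0 reads in Adi or Adi_ASA. A low Ost mean was part of the rule, so these counts are a description, and the share over all genes was not taken. The most abundant of the 5 was ENSRNOG00000000010, with 149, 174 and 166 CPM in Control, 36.7, 28.1 and 32.1 CPM in Adi and 31.6, 30.9 and 32.8 CPM in Adi_ASA. Against 3 reads over the group, the limit that a count of 0 allows, it was at least 3417-fold lower in Ost and at least 3565-fold lower in Ost_ASA than in Control, which covers counting error only.

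The libraries with aspirin were not used by the rule, and most members were also low in them. Of the 100 members, 69 were at or under 25% of Control in Adi_ASA and 98 in Ost_ASA, where 0.957% and 5.19% of all 10347 genes with at least 5 CPM in Control were. Both held for 68 members. The Control libraries are shared with the rule, so this is a description and not a test. The level left in Adi_ASA had a median of 19.2% of Control and reached 54.2%, and in Ost_ASA the median was 6.497% and the highest 35.2%. The highest value in Ost_ASA belonged to ENSRNOG00000046652, whose Control mean rests on 1 library. The highest in Adi_ASA belonged to ENSRNOG00000026672, which had 14.6, 8.19 and 13.3 CPM in Control, 0.367, 4.15 and 1.36 CPM in Adi and 7.62, 4.92 and 6.32 CPM in Adi_ASA. Its Adi libraries varied widely, and its difference between Adi_ASA and Adi did not pass the test (log2 fold change 1.63, SE 0.87, edgeR adjusted p = 0.384).

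**Figure D3:**
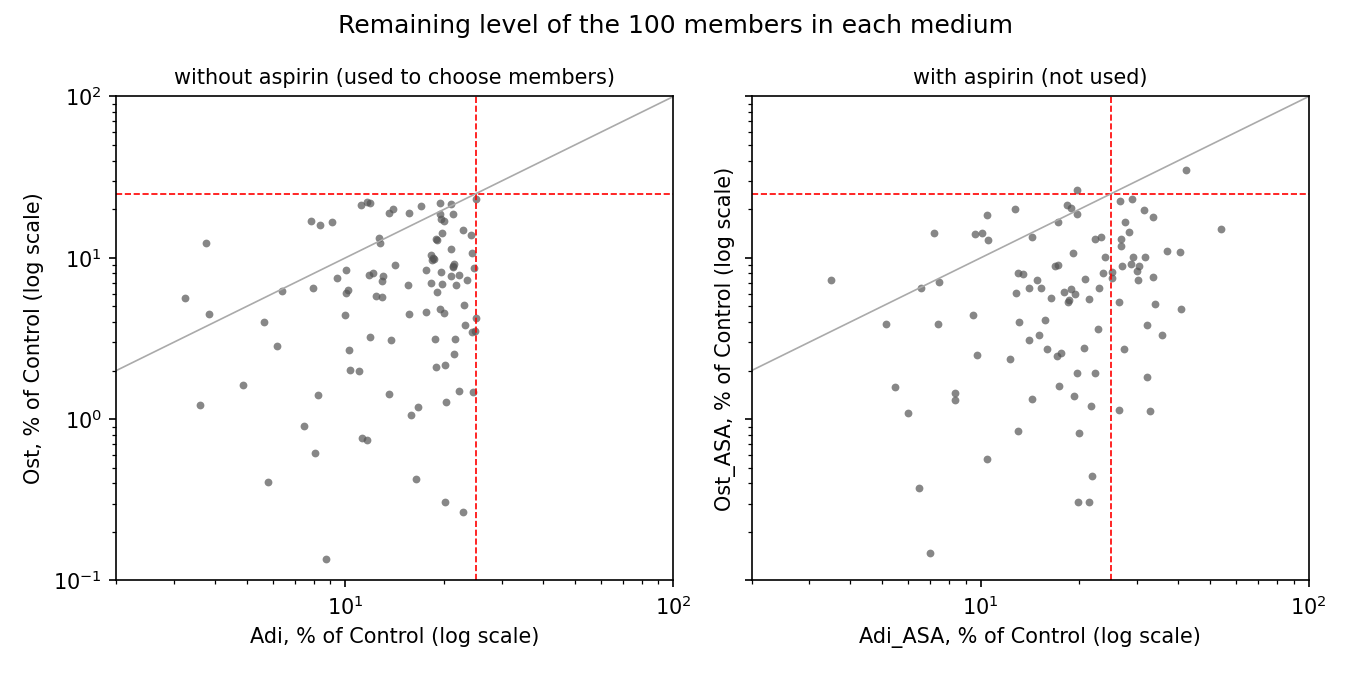
Level of each member as a percentage of Control in adipogenic (horizontal) and osteogenic medium (vertical), both on log scales, without aspirin (left) and with aspirin (right). Each point is a member, dashed lines mark 25% and the diagonal marks equal levels. The left panel ends at the dashed lines because these values chose the members, and on the right 31 points lie beyond the vertical line and 2 above the horizontal one.

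Comparing Adi_ASA with Ost_ASA asks how far the members differ between the media in libraries that did not choose them. These libraries share their media with Adi and Ost, whose means chose the members. The part of the choice in the direction was not tested. Of the 100 members, 80 were higher in Adi_ASA and 4 were higher in Ost_ASA (edgeR quasi-likelihood test, adjusted p under 0.05), and 16 were not called. Among all 15543 genes tested, 32.9% were higher in Adi_ASA and 32.8% lower (65.7% in all). The median log2 fold change of the members was 2.87, against 0.01 for all genes, and 27 of those higher in Adi_ASA differed by at least 4 on the log2 scale, as did 2.55% of all genes. After TMM scaling, all 3 Adi_ASA libraries were above all 3 Ost_ASA libraries for 83 members and below them for 4, against 34.9% and 34.2% of all genes. The counts under the alternatives run were 77 to 81 higher and 4 to 6 lower. The shares over all genes there were 14.6% to 33% higher and 14.6% to 33.1% lower. The smallest of these shares were those of DESeq2, taken over 34480 rows.

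The members with the widest gap were ENSRNOG00000000010 and ENSRNOG00000007335. The first, described above, was at least 695-fold higher in Adi_ASA than in Ost_ASA, where it had 0 reads (edgeR adjusted p = 6.40e-15). ENSRNOG00000007335 had 419, 372 and 378 CPM in Control and 44.0, 30.3 and 26.3 CPM in Adi. It had 23.7, 24.7 and 32.3 CPM in Adi_ASA. Only 2 reads were counted over the 3 Ost libraries and 5 over the 3 Ost_ASA libraries (log2 fold change 8.43, SE 0.44, edgeR adjusted p = 8.14e-09). Both genes were thus still expressed in adipogenic medium and were at or near 0 reads in osteogenic medium.

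The 4 members that were lower in Adi_ASA than in Ost_ASA had smaller differences. ENSRNOG00000036672 had 43.1, 42.4 and 39.2 CPM in Control, 0.751, 1.00 and 1.14 CPM in Adi_ASA and 2.56, 2.44 and 2.63 CPM in Ost_ASA (log2 fold change -1.31, SE 0.16, edgeR adjusted p = 2.17e-07). ENSRNOG00000017206 had 207, 179 and 207 CPM in Adi_ASA and 361, 381 and 426 CPM in Ost_ASA (log2 fold change -0.90, SE 0.11, edgeR adjusted p = 1.10e-06). In both genes every Adi_ASA library was below every Ost_ASA library, the same order as without aspirin. ENSRNOG00000032626 was at 29.6 ± 1.62 CPM (SD, n = 3) in Adi_ASA and 53.0 ± 3.69 CPM in Ost_ASA, and ENSRNOG00000032832 at 5.19 ± 0.471 and 8.48 ± 1.64 CPM, with log2 fold changes of -0.76 and -0.63.

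Genes past the ratio in a single medium give a frame for this difference, added after the data were seen. Of the 414 genes at or under 0.25 of Control in Ost alone, 97.8% were higher in Adi_ASA than in Ost_ASA, with a median log2 fold change of 2.71. Of the 45 genes past the ratio in Adi alone, 4.44% were higher and 71.1% lower. How these sets were chosen bears on the direction in each, and the difference between them was not tested.

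**Figure D4:**
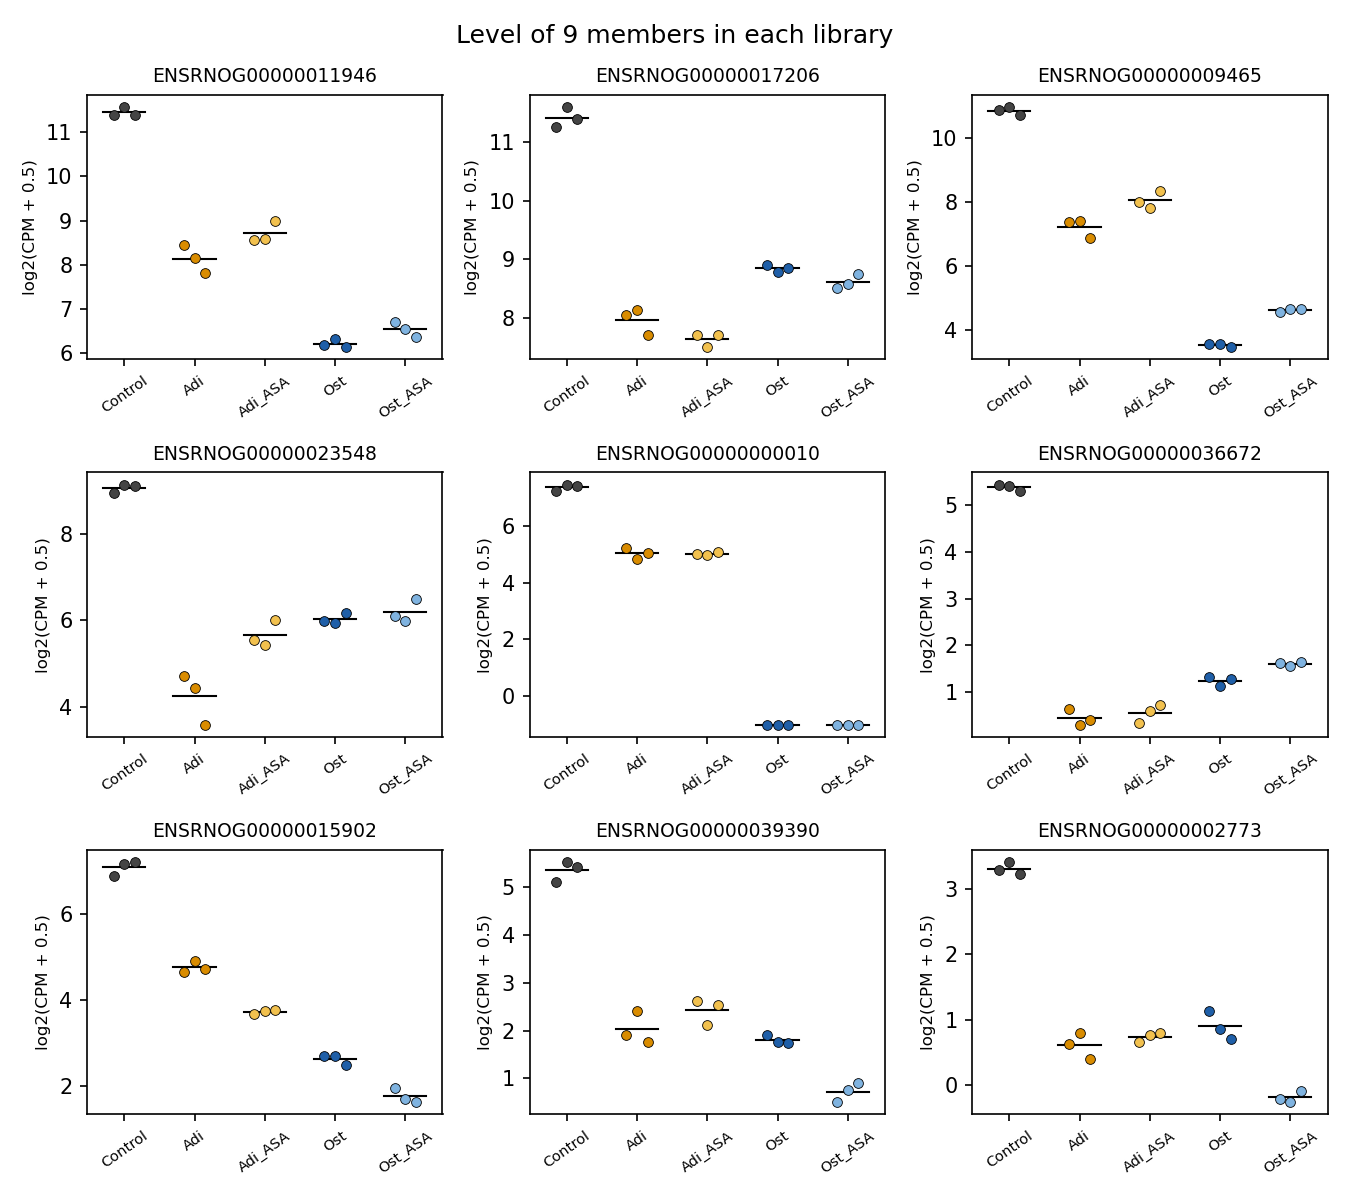
Level of 9 members in each library, as log2(CPM + 0.5) on the vertical axis, by group on the horizontal axis. Circles are libraries and horizontal lines are means of the 3 log2 values. Control is highest in each panel, and the panels differ in the order of the media and in whether libraries with aspirin lie above or below those without.

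Aspirin was added to adipogenic medium to ask how it acts on adipogenic induction. It raised 15 members and lowered 3 relative to Adi (edgeR adjusted p under 0.05), where 2.49% of all genes tested were higher and 1.85% lower, and 82 members were not called (4.34% of all genes were called in either direction). The fitted log2 fold change was positive for 80 members, against 50.4% of all genes, with a median of 0.39 against 0.00. The rises were small, from 0.37 to 1.54 on the log2 scale with a median of 0.70, and 6 of the 15 raised members were still at or under 25% of Control. After TMM scaling all Adi_ASA libraries were above all Adi libraries for 42 members and below for 6, against 12.1% and 11.4% of all genes.

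The Adi mean helped to choose the members, so a rise from Adi is not independent of the choice, and the part of the choice in it was not tested. Of the 45 genes past the ratio in Adi alone 24.4% were called higher with aspirin, and of the 414 past it in Ost alone 5.07% were called higher and 7.73% lower.

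Individual libraries also moved with this result. Adi replicate 3 had the lowest CPM of the Adi libraries for 64 of the 100 members, and Adi_ASA replicate 3 had the highest share of reads in members of the adipogenic libraries. Without Adi replicate 3, 10 members were called higher (1.71% of all genes) and the median log2 fold change was 0.29. Without Adi_ASA replicate 3, 4 members were called higher (1.14% of all genes), while 78 still had a positive log2 fold change, with a median of 0.31. Without Adi replicate 2, 10 members were called higher (1.37% of all genes), as in a fit of the compared groups alone (2.84%), and the other leave-outs gave 14 to 18 (1.66% to 1.94%). The fit of the compared groups filtered genes anew and kept 14417, and how many members it kept is not given here. The count of raised members therefore depends on the libraries used. The sign of the median was positive in each of the 6 leave-outs. The members stayed as chosen from all Adi libraries in these fits, so this sign is not independent of the choice either. What these libraries contribute to the rise beyond this was not tested.

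The members raised most were ENSRNOG00000051993 and ENSRNOG00000023548. ENSRNOG00000051993 had 11.0, 9.71 and 10.0 CPM in Control, 0.419, 0.311 and 0.291 CPM in Adi and 0.965, 1.05 and 1.09 CPM in Adi_ASA (log2 fold change 1.54, SE 0.36, edgeR adjusted p = 0.0168). All Adi_ASA libraries were above all Adi libraries, with 20 reads over the Adi libraries and 62 over the Adi_ASA libraries. The call was lost without Adi replicate 2 or 3 and without Adi_ASA replicate 2 or 3 (edgeR adjusted p = 0.0504 to 0.0789). ENSRNOG00000023548 had 488, 563 and 548 CPM in Control, 26.0, 21.1 and 11.6 CPM in Adi and 46.1, 42.5 and 63.9 CPM in Adi_ASA (log2 fold change 1.33, SE 0.27, edgeR adjusted p = 0.0207). It remained at 9.62% of Control with aspirin. Its call was lost without Adi replicate 2 (edgeR adjusted p = 0.0637), without Adi_ASA replicate 3 (0.0866) and in a fit of the compared groups alone (0.159).

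The 3 members lowered by aspirin in adipogenic medium moved further from Control. ENSRNOG00000015902 had 119, 144 and 148 CPM in Control, 24.7, 29.8 and 26.0 CPM in Adi and 12.4, 13.0 and 13.1 CPM in Adi_ASA (log2 fold change -1.12, SE 0.09, edgeR adjusted p = 3.72e-07). All Adi_ASA libraries were below all Adi libraries, and the call held under all 11 alternatives. ENSRNOG00000004275 had 121, 105 and 96.5 CPM in Adi and 88.4, 88.2 and 86.1 CPM in Adi_ASA (log2 fold change -0.35, SE 0.07, edgeR adjusted p = 0.00351). It was lower in all 3 aspirin libraries than in any Adi library. ENSRNOG00000017206 had a log2 fold change of -0.39 (SE 0.11, edgeR adjusted p = 0.0496), and its call was lost under 8 of 11 alternatives (edgeR adjusted p = 0.0846 to 0.187), so that it stands at the edge of the threshold.

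Aspirin in osteogenic medium gave mostly lower calls, while the fitted changes of the members as a set went in both directions. It raised 1 member and lowered 7 relative to Ost (edgeR adjusted p under 0.05), where 2.34% of all genes tested were higher and 1.29% lower (3.63% in all). The log2 fold change was positive for 46 members (50.9% of all genes) and negative for 49, and the other 5 had no reads in these 6 libraries. The median of 0.0 is the value fitted for those 5, which were kept because the filter took in all 5 groups. In a fit of the compared groups alone, filtered on those libraries, the median was -0.12 and 29 members were positive. How many members that fit kept is not given here. After TMM scaling the libraries did not overlap for 12 members that were higher and 14 that were lower with aspirin, against 10.5% and 8.01% of all genes. The Ost mean helped to choose the members here too, and 47 of them had a mean under 1 CPM in Ost. The counts of members lowered were 5 to 7 under the alternatives run, where 0.763% to 1.3% of all genes were lower.

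The raised member, ENSRNOG00000009465, had 1910, 2021 and 1684 CPM in Control, 11.3, 11.3 and 10.5 CPM in Ost and 23.1, 24.91 and 24.97 CPM in Ost_ASA (log2 fold change 1.16, SE 0.17, edgeR adjusted p = 0.00260). All aspirin libraries were about 2-fold above those without, and the level was still 1.33% of Control. In adipogenic medium the same gene had 166, 168 and 118 CPM in Adi and 257, 225 and 323 CPM in Adi_ASA (log2 fold change 0.78, SE 0.14, edgeR adjusted p = 0.00900, and 0.158 in a fit of the compared groups alone). It was thus higher with aspirin in both media.

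Of the 7 lowered members, ENSRNOG00000002773 and ENSRNOG00000039390 changed most. ENSRNOG00000002773 had 9.20, 10.1 and 8.82 CPM in Control, 1.69, 1.31 and 1.14 CPM in Ost and 0.365, 0.335 and 0.439 CPM in Ost_ASA (log2 fold change -1.82, SE 0.24, edgeR adjusted p = 0.000141). This change rests on 87 reads over the Ost libraries and 25 over the Ost_ASA libraries. ENSRNOG00000039390 had 34.3, 45.8 and 42.9 CPM in Control, 3.28, 2.89 and 2.82 CPM in Ost and 0.914, 1.20 and 1.36 CPM in Ost_ASA (log2 fold change -1.35, SE 0.22, edgeR adjusted p = 0.00119). In both genes every Ost_ASA library was below every Ost library.

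In 4 members, named after their values were seen, aspirin passed the test in both media, as it did for 0.573% of all genes. ENSRNOG00000009465 rose in both. ENSRNOG00000015902 fell in both, with 5.99, 6.04 and 5.10 CPM in Ost and 3.38, 2.77 and 2.59 CPM in Ost_ASA (log2 fold change -0.95, SE 0.12, edgeR adjusted p = 0.000137). ENSRNOG00000055049 rose in adipogenic medium, from 29.7 ± 3.38 CPM (SD, n = 3) to 43.8 ± 4.05 CPM (log2 fold change 0.51, SE 0.09, edgeR adjusted p = 0.00142), and fell in osteogenic medium, from 2.70 ± 0.0436 to 1.34 ± 0.337 CPM (log2 fold change -1.002, SE 0.17, edgeR adjusted p = 0.00172). ENSRNOG00000013589 likewise rose by 0.37 in adipogenic medium and fell by 0.39 in osteogenic medium on the log2 scale. Opposite changes that both passed were found for 0.238% of all genes.

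**Figure D5:**
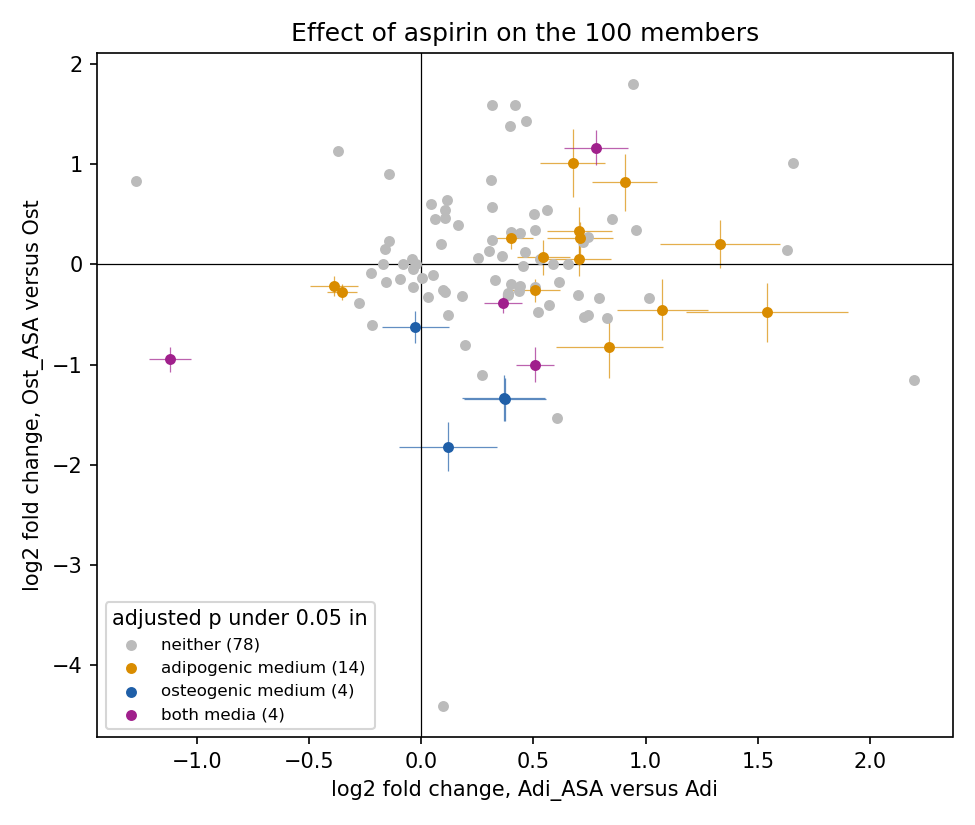
Log2 fold change with aspirin in adipogenic (horizontal) and osteogenic medium (vertical) for each member, from the edgeR model. Colours give the medium in which adjusted p was under 0.05, with the number of members in brackets, and bars are standard errors, drawn for called members. Most points lie to the right of 0, and vertically they scatter on both sides of 0.

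The difference of the aspirin effects between the media was tested as an interaction. It passed for 9 members, each with a more positive effect in adipogenic medium (edgeR adjusted p under 0.05), where 1.2% of all genes tested were more positive and 1.63% more negative (2.83% in all). The Adi and Ost means that chose the members enter this difference, so the count is not independent of the choice. Of the 45 genes past the ratio in Adi alone 20% were more positive and 0% more negative, and of the 414 past it in Ost alone 2.9% and 7.97%. The alternatives gave 6 to 11 such members (0.667% to 1.22% of all genes), and 6 without Adi_ASA replicate 3 (0.768% of all genes). In the other direction edgeR called 0 members, DESeq2 called 0, and 1 member had an unadjusted edgeR p under 0.05. Of the 9 members, 4 had passed the aspirin test only in adipogenic and 3 only in osteogenic medium, and 2 in both. The largest differences were those of ENSRNOG00000051993 at 2.02 (SE 0.47, edgeR adjusted p = 0.0185) and ENSRNOG00000002773 at 1.94 (SE 0.33, edgeR adjusted p = 0.00156) on the log2 scale, adipogenic minus osteogenic. The first rested on the rise in adipogenic medium and the second on the fall in osteogenic medium, and ENSRNOG00000051993 lost its call under 6 of 17 alternatives (edgeR adjusted p = 0.0526 to 0.0579).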

How the data were processed

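RNA sequencing covered 15 libraries, 5 groups of 3 taken from the sample titles. The build was Rnor_6.0 and the tools named were DESeq 1.18.0, HTSeq 0.9.1 and HISAT2 2.0.4, per the submitters' processing notes. The sources used here give no settings, strand included, so genes that overlap or have near-identical copies are uncertain. The authors deposited 1 table of unnormalised read counts, with 32883 Ensembl rows and 1597 other rows, and all rows named a feature. The reference table (assembly GRCr8) held 0 Ensembl identifiers, so the 32883 Ensembl rows could not be looked up in it. For this reason 13 gene lists, 6 cell type marker lists and the promoter search were not applied.

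CPM values were counts divided by the column total, times 1000000. The test was edgeR 4.0.16 (R 4.3.3). The filter filterByExpr left 15543 genes with at least 99.9% of the counts, libraries were scaled by TMM, and 1 robust quasi-likelihood model of group means took all 15 libraries, with Benjamini-Hochberg adjustment over all genes kept and a threshold of 0.05. The SE is the log2 fold change divided by the square root of F. Libraries overlap or not as TMM-scaled CPM.

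Members and lists were chosen with earlier results of these data known. By rule, the most abundant members, those with the smallest larger ratio, and in each contrast the called members with the largest change, no overlap and at least 1 CPM were named, up to 5 a direction. Without symbols only the first 2 are named, or all where 5 or fewer were called. No 2 replicates were alike within counting noise (chi-square over its degrees of freedom was 5.41 to 13.5, genes with at least 10 reads in a pair). Alternatives were RLE factors, no filter, DESeq2 1.42.0, fits of the compared groups, a replicate block and each library left out.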

Additional observations from a re-analysis of the deposited data

Results flagged for a closer look

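The effect of aspirin differed between the media, by the interaction test of edgeR at an adjusted p under 0.05, for 9 of the 100 members, against 2.83% of all genes tested. The Adi and Ost values that chose the members enter this test, so the count is not independent of the choice, and of the 45 genes past the ratio in Adi alone 20% were called. Among the members named, the difference was 2.02 on the log2 scale (adipogenic minus osteogenic) for ENSRNOG00000051993, 1.94 for ENSRNOG00000002773 and 1.72 for ENSRNOG00000039390 (SE 0.28, edgeR adjusted p = 0.00185). ENSRNOG00000039390 had 3.25, 4.82 and 2.91 CPM in Adi and 5.63, 3.87 and 5.27 CPM in Adi_ASA, which overlap, while its Ost_ASA libraries were all below its Ost libraries.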

How the results depend on the processing

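Of 135 counts of members under alternatives, 129 stayed within 1.5 times the main count, the limit included. The limit takes in 10 members raised by aspirin in adipogenic medium without Adi replicate 2, against 15. It also takes in 6 members with a more positive aspirin effect there without Adi_ASA replicate 3, against 9. The number of members was 66 at a ratio of 0.2 and 180 at 0.33, which narrow and widen the rule by construction. Members raised by aspirin in adipogenic medium numbered 4 to 18 with 1 library left out (1.14% to 1.94% of all genes), against 15 (2.49%). With 1 library left out, 1 to 2 members were called higher with aspirin in osteogenic medium (1.32% to 2.27% of all genes), against 1 (2.34%). DESeq2 called 3 (1.37% of 34480 rows) and a fit of the compared groups 2 (2.15%). These counts are near the shares over all genes, and the cause of their differences was not tested. Among 944 fold changes of named members under alternatives, 31 lost and 8 gained a call and 22 changed sign, of which 0 were called in either fit. Replicate numbers did not go together (correlation of deviations -0.0882 to 0.0623 over 30 pairs, and 2 of 15 libraries closest to their own number). With the replicate number as a block, 79 members were higher and 4 lower in Adi_ASA than in Ost_ASA (32.6% and 32.5% of all genes), 12 rose and 2 fell with aspirin in adipogenic medium (2.11% and 1.57%), 1 rose and 7 fell in osteogenic medium (2.18% and 1.14%), and 8 had a more positive effect in adipogenic medium (1.08%). Members at a few reads in osteogenic medium limit what can be seen of aspirin there.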

Other observations

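Among the rows without an Ensembl identifier, 327 had a Control mean of at least 5 CPM, and 13 of these (3.98%) met the same ratios in both media. They were left out of the members by the rule.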
